A study of Homo sapiens with 14 samples.

Results

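Golgins are long coiled-coil proteins of the Golgi apparatus, and 10 of their genes are described here out of the 58825 gene identifiers in the count tables. They are GOLGA1, GOLGA2, GOLGA3, GOLGA4, GOLGA5, GOLGA8A, GOLGB1, GCC1, GCC2 and TRIP11, matched by symbol to the Ensembl identifiers. They were chosen by family after their CPM in these libraries, with each compound, line, time and library set, was known, so their levels and changes with GSK-J4 are a description. No golgin is given a p-value of its own, and counts of golgins past a threshold stand beside the share of all genes past it, with nothing read from them. RNA was sequenced from 3 established lines derived from human ovarian carcinomas, OVCAR-3, CAOV3 and SKOV3, grown with 2.5 µM GSK-J4 or 2.5 µM GSK-J5. GSK-J4 enters cells as an ester and inhibits KDM6A and KDM6B, enzymes that remove methyl groups from lysine 27 of histone H3. Its pyridine regio-isomer GSK-J5, the inactive counterpart, was the control in every comparison. At 72 h there were 3 libraries of each compound in each line, with a further 2 of each from OVCAR-3 at 48 h, 22 libraries from 14 samples. Replicates 1 and 2 form the first library set, for which the labels name stripped medium and one RNA kit. Replicate 3 forms the second, with another kit, poly(A) enrichment and a medium text that names serum and not stripping. The set and replicate 3 are therefore the same thing, each set holds both compounds, and no library without a compound is used here. Separate cultures are not named for the replicates, so p-values measure the spread between these libraries, which may be technical.

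A golgin is fixed to the Golgi membrane by its carboxy-terminal end, and its coiled coil reaches into the cytoplasm, where it catches vesicles and binds small GTPases of the Rab and Arf-like families. Different golgins sit on the entry (cis) face, the rims and the exit (trans) face of the stack, and together they give vesicle traffic its direction and hold the cisternae in a ribbon. In secretory epithelial cells, the kind that ovarian carcinoma lines resemble, this traffic carries glycoproteins and mucins to the surface. On GRCh38 with GENCODE 29 all 10 are protein-coding genes: GOLGA1 (chr9:124878357-124948492), GOLGA2 (chr9:128255829-128275995), GOLGA3 (chr12:132768909-132828858), GOLGA4 (chr3:37243177-37366751), GOLGA5 (chr14:92794231-92839963), GOLGA8A (chr15:34379068-34437466), GOLGB1 (chr3:121663199-121749767), GCC1 (chr7:127580618-127593611), GCC2 (chr2:108448561-108509415) and TRIP11 (chr14:91965991-92040896). The transcripts are long: the longest annotated transcript ran from 2969 bases for GOLGA5 to 11198 bases for GOLGB1.

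Promoter sequence is shown for the 4 golgins that stood farthest from GSK-J5 in OVCAR-3, GOLGA5 and GCC1 on the higher side and GOLGA1 and GOLGA3 on the lower side, and for GOLGB1, the longest transcript. RefSeq promoters on GRCh38.p14 were found for 8 of the 10 genes, and not for GOLGA4 and GOLGA8A. Each line gives the bases before the RefSeq start, 5′ to 3′ in the direction of the gene, up to the first base that GENCODE 29 places in an exon. The windows are chr14:92794055-92794230 on the plus strand for GOLGA5, and on the minus strand chr7:127585608-127585846 for GCC1, chr9:124941100-124941333 for GOLGA1, chr12:132829082-132829331 for GOLGA3 and chr3:121749768-121749991 for GOLGB1. Capitals mark matches, on either strand, to CCAAT (the CCAAT box), TGACGT (the core shared by cAMP response and unfolded protein response elements) and ACGTGGC (the core of the Golgi apparatus stress response element).
GOLGA5: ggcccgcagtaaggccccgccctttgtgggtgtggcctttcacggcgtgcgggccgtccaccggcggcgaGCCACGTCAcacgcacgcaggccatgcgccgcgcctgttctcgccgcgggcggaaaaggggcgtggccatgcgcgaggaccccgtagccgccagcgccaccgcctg
GCC1: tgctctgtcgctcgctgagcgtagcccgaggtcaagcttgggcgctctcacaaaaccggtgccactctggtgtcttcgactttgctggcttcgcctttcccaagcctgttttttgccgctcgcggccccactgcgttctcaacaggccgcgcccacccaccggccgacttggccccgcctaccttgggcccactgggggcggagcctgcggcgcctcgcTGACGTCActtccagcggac
GOLGA1: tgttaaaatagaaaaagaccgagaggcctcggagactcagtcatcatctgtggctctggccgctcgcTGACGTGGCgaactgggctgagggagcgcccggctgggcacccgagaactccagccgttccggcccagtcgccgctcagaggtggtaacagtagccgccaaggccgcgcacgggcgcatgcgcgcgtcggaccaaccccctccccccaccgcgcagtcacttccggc
GOLGA3: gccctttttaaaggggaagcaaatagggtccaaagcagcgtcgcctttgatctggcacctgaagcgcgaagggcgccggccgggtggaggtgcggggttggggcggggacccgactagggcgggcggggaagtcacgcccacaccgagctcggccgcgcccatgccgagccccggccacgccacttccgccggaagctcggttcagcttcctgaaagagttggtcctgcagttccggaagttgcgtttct
GOLGB1: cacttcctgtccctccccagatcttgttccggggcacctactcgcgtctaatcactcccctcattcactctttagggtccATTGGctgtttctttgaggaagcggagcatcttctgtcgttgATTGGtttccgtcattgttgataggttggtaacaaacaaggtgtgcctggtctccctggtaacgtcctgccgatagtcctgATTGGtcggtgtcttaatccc

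The windows of GOLGA1 and GOLGA5 held the same 9 bases, TGACGTGGC in GOLGA1 and its reverse complement in GOLGA5, in which TGACGT and ACGTGGC overlap. These 9 bases stood in the 250 bases before the start of 77 of 35116 RefSeq promoters (0.219%), and that run was singled out after the windows had been read. GCC1 carried TGACGT on both strands of one overlapping site and no ACGTGGC. GOLGB1 carried CCAAT at 3 places, all on the reverse strand, and GOLGA3 carried none of the 3 motifs. Over all promoters of the same length, CCAAT was found in 32%, TGACGT in 7.1% and ACGTGGC in 2.78%. Among the 8 matched golgins the numbers were 3, 3 and 2. A match is a description of letters, and the part of these motifs in the golgin values was not tested.

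Depth and cell identity were as follows. The libraries held between 24037007 and 37990707 counts, and levels are given as CPM, counts scaled to library size with TMM factors. A count of 0 in a library allows up to 0.079 to 0.1248 CPM, for counting error only. Every golgin was counted in every library, and the lowest level was 0.614 CPM (GOLGA8A in CAOV3). Epithelial keratin KRT8 was between 516 and 5692 CPM in every library, and of 6 genes of other cell types 3 were under 1 CPM throughout, the leukocyte genes PTPRC and CD68 and the fibroblast gene DCN. The other 3 were detected: the collagen gene COL1A1 at 7.30 to 49.8 CPM in OVCAR-3, 30.1 to 54.7 in CAOV3 and 345 to 473 in SKOV3, and the endothelial genes PECAM1 at up to 4.84 CPM in CAOV3 and 6.84 in SKOV3 and VWF at up to 3.85 in OVCAR-3. In OVCAR-3 at 48 h COL1A1 was at 39.6 ± 1.06 CPM with GSK-J5 and 12.9 ± 0.89 with GSK-J4 (SD, n = 2), and VWF at 2.78 ± 0.48 and 0.52 ± 0.16 (SD, n = 2). Neither passed with all libraries (edgeR adjusted p = 0.0692 and 0.0729), and both fell in the first set alone. Of 8 ovarian and epithelial markers, 1 rose and 3 fell in OVCAR-3 at 48 h by edgeR, where 11.3% of all genes rose and 7.63% fell. The one that rose was the keratin KRT7, at 618 and 613 CPM with GSK-J5 and 1698 and 1534 CPM with GSK-J4 (log2 change 1.425). KRT8 was among those that fell (log2 change -1.06, SE 0.21, edgeR adjusted p = 0.022). The part of these markers in the golgin values was not tested. Some ovarian and epithelial markers were missing or low. WT1 was at or near 0 in CAOV3 and at 0.54 to 1.24 CPM in SKOV3, where MUC16 was under 0.4 CPM. EPCAM in SKOV3 was at 15.3 to 19.8 CPM in the first set and at 3.55 (GSK-J5) and 3.37 (GSK-J4) in the second. MSLN in SKOV3 was at 14.4 to 21.4 CPM in the first set and at 2.52 and 2.21 in the second. KDM6A, a target of GSK-J4, did not pass the test in any comparison. KDM6B, the other target, rose in OVCAR-3 at 48 h alone of the 4 comparisons (log2 change 0.89, SE 0.16, adjusted p = 0.0188 by edgeR's quasi-likelihood test); whether that differs from the other comparisons was not tested. As these are bulk RNA samples, fewer cells of a kind and less RNA per cell cannot be told apart.

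In OVCAR-3 at 48 h, the golgins lay on both sides of their controls, with GOLGA5 and GCC1 well over their GSK-J5 level and GOLGA3 and GOLGA1 under theirs. GCC1 (GCC88), a trans-Golgi golgin whose GRIP domain binds the GTPase ARL1, was at 37.4 and 39.1 CPM with GSK-J5 and at 88.6 and 89.9 CPM with GSK-J4. The groups did not overlap, and the log2 change was 1.25 (SE 0.19, 95% interval 0.82 to 1.69). GOLGA5 (golgin-84), which spans the membrane by a carboxy-terminal anchor and works with the COG complex, was at 55.8 and 55.1 CPM with GSK-J5 and at 122 and 124 CPM with GSK-J4. Its log2 change was 1.18 (SE 0.35), with groups as far apart as those of GCC1 but a wider standard error. That error came from a fit of all OVCAR-3 libraries, those of 72 h included, and not from the 48 h libraries alone. In the first set alone, without replicate 3, the standard errors were 0.089 for GOLGA5 and 0.084 for GCC1.

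GOLGA3 (golgin-160), a peripheral golgin, was lower with GSK-J4 in OVCAR-3 at 48 h, at 52.5 and 57.7 CPM against 90.7 and 103 CPM with GSK-J5 (log2 change -0.78, SE 0.32). GOLGA1 (golgin-97), a trans-Golgi GRIP golgin like GCC1, was at 17.1 and 18.6 CPM against 27.1 and 26.4 CPM (log2 change -0.55, SE 0.30). Neither gene's groups overlapped. GOLGA8A, of a primate family related to GOLGA2, was at 12.8 and 11.7 CPM with GSK-J5 and 17.9 and 15.5 CPM with GSK-J4. Its counts are uncertain, because GOLGA8B is a near-identical neighbour on chromosome 15 and GOLGA8A held 46.0% to 54.0% of the 2 genes' summed counts in these 4 libraries.

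The other 5 golgins stayed nearer to their controls in OVCAR-3 at 48 h. GOLGB1 (giantin), the largest of them and membrane-spanning, was at 141 and 155 CPM with GSK-J5 and 97.0 and 134 CPM with GSK-J4, so that the groups were apart by little. GOLGA2 (GM130), the cis-Golgi partner of the tether USO1, was at 129 and 136 CPM against 125 and 122 CPM. GOLGA4 (golgin-245), GCC2 (GCC185) and TRIP11 (GMAP-210, which grips curved membrane at the cis-Golgi) had log2 changes of 0.21, -0.15 and -0.12, with 95% intervals that all held 0. With library totals in place of TMM the change of GOLGA4 turned negative.

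By edgeR with Benjamini-Hochberg adjustment over all 17402 genes tested, 1 golgin, GCC1, was called higher at 48 h where 11.3% of all genes were. Of the golgins 0 were called lower, where 7.63% of all genes were. DESeq2 called 2 golgins higher and 0 lower, where it called 2919 and 2936 of the 17402 genes. At an unadjusted p under 0.05 by edgeR stood 4 of the 10 golgins and 7262 of the 17402 genes. In the first set alone edgeR called 3 higher (GCC1, GOLGA5 and GOLGA8A) where 29.1% of all genes were, and 2 lower (GOLGA1 and GOLGA3) where 29.8% were. In 3 golgins the GSK-J4 libraries were all above the GSK-J5 libraries (37.6% of all genes) and in 5 they were all below (43% of all genes). The median log2 change was -0.09 for the 10 golgins and -0.03 for all genes. Other measures moved with the compound in these 4 libraries. Genes that reached 10 counts numbered 16425 and 16576 under GSK-J5 and 15606 and 15406 under GSK-J4, and mitochondrial rRNA took 0.0736% and 0.0694% of counts against 0.415% and 0.275%; their part in the golgin values was not tested. GCC1 was no longer called when any single library of 48 h was left out, and 0 genes at all were then called.

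At 72 h in OVCAR-3, the first library set showed a wider split and the second set showed little of it. GOLGA5 was at 48.7 and 53.0 CPM with GSK-J5 and at 192 and 213 CPM with GSK-J4 in the first set, and at 60.8 against 90.8 CPM in the second. All 3 GSK-J4 libraries lay above all 3 of GSK-J5, with 2 of them far above. The log2 ratio was 2.00 in the first set and 0.58 in the second, and the log2 change over all 6 libraries was 1.52 (SE 0.36, 95% interval 0.64 to 2.40). GOLGA3 was its mirror image in the first set, at 101 and 97.3 CPM with GSK-J5 and 26.0 and 28.5 CPM with GSK-J4. The second set had 90.03 against 78.5 CPM, so that the groups still did not overlap, and the log2 change over all libraries was -1.33 (SE 0.33).

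GOLGA1 followed GOLGA3 in the first set at 72 h. It was at 26.7 and 26.9 CPM with GSK-J5 and 10.6 and 9.72 CPM with GSK-J4. In the second set the direction depended on the scaling. GSK-J4 was at 23.9 against 22.4 CPM with TMM, and at 22.9 against 25.2 CPM with library totals. The TMM-scaled log2 ratio of GOLGA1 in that set was 0.09, and the median of all genes was 0.15. GCC1, which stood highest at 48 h, was at 37.8 and 38.9 CPM with GSK-J5 and 57.9 and 56.4 CPM with GSK-J4 in the first set. The second set had 57.2 and 59.5 CPM, so the control library of that set already stood at the level the first set had with GSK-J4. Over all libraries the log2 change of GCC1 was 0.39 (SE 0.20), and it was about 0 (-0.00074) with library totals in place of TMM. GOLGB1 was at 136 and 146 CPM against 86.3 and 107 CPM in the first set, and at 187 against 185 CPM in the second.

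GOLGA2, GOLGA4, GOLGA8A, GCC2 and TRIP11 had log2 changes between -0.12 and 0.18 in OVCAR-3 at 72 h, and the libraries of the 2 compounds overlapped for each. With library totals in place of TMM, the median log2 change of all genes shifted by -0.40 at 72 h and by -0.22 at 48 h. GOLGA4, GCC1 and TRIP11 then turned negative at 72 h, while GOLGA5 stayed higher and GOLGA1 and GOLGA3 stayed lower. Those libraries also differed in other ways with GSK-J4. Genes that reached 10 counts numbered 16444 and 16504 in the first-set GSK-J5 libraries at 72 h, and 14714 and 14680 under GSK-J4. The 20 largest genes held 12.7% and 12.99% of counts with GSK-J4 and 8.12% and 7.74% with GSK-J5. Mitochondrial rRNA took 0.0435% and 0.0323% of counts in the first-set GSK-J5 libraries and 0.381% and 0.318% under GSK-J4, and 0.0961% against 0.257% in the second set. The part of this in the golgin values was not tested.

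With all libraries of OVCAR-3 at 72 h, 0 golgins were called in either direction by edgeR, where 0.0298% of all genes were called higher and 0% lower. At an unadjusted p under 0.05 stood 3 of the 10 golgins and 7244 of the 16802 genes tested. In the first set alone 2 were called higher (GOLGA5 and GCC1), where 34.6% of all genes were, and 3 lower (GOLGA1, GOLGA3 and GOLGB1), where 37.1% were. DESeq2's Wald test on all 6 libraries called 1 golgin higher and 2 lower, where it called 3336 and 2986 of the 16802 genes. With all libraries, 1 golgin had GSK-J4 wholly above GSK-J5 (22.8% of all genes) and 1 wholly below (15.3%).

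**Figure D1:**
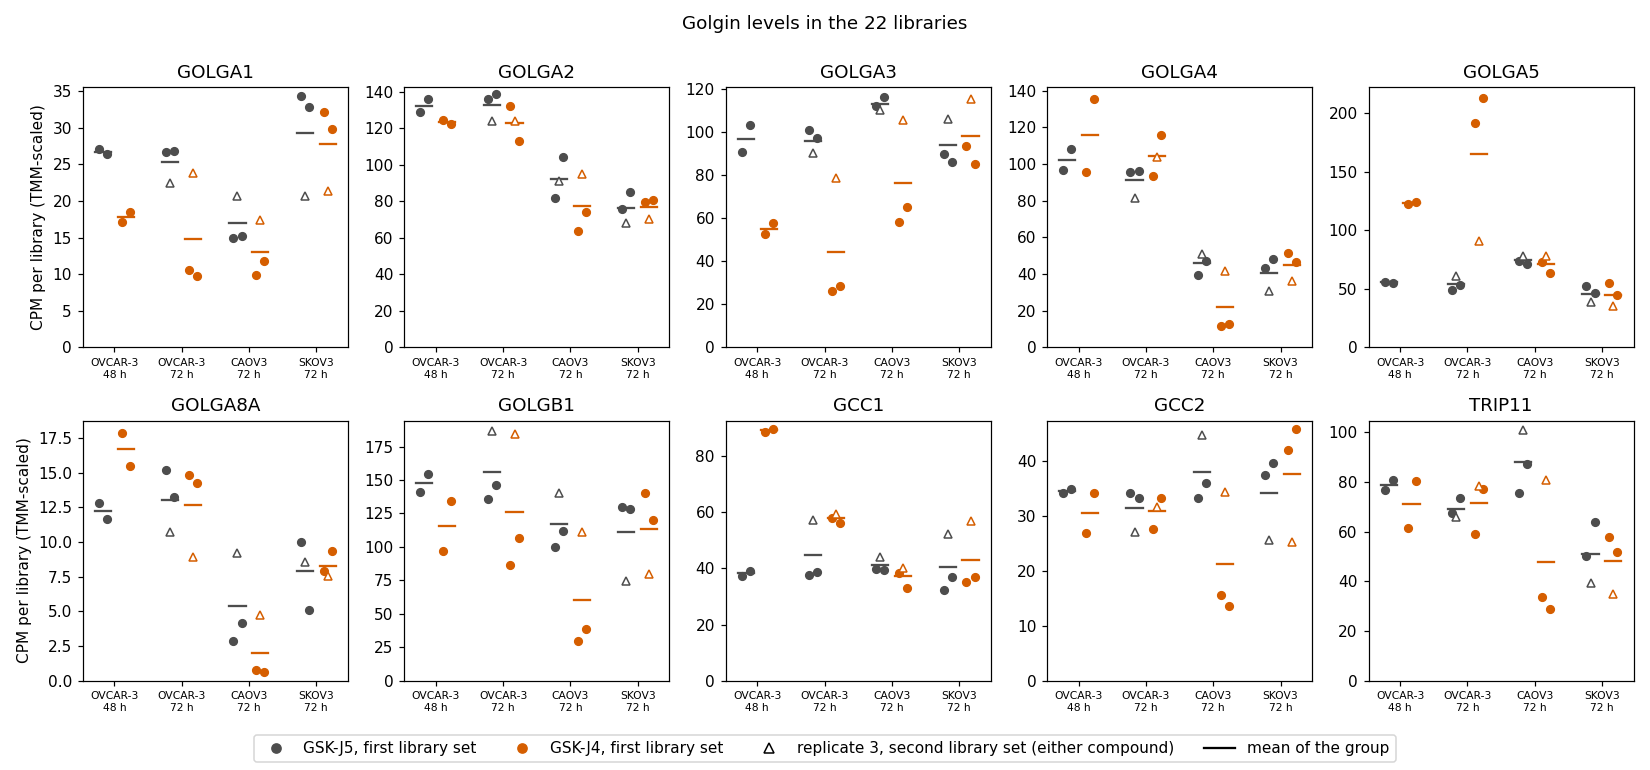
TMM-scaled CPM of each golgin in the 22 libraries, by line and time. Filled circles are the first library set, open triangles replicate 3 of the second set, grey GSK-J5 and orange GSK-J4, and short lines the group means. GOLGA5 and GOLGA3 part in opposite directions in OVCAR-3, GOLGA4, GCC2, TRIP11 and GOLGB1 with GSK-J4 lie below GSK-J5 in the first set of CAOV3, and the SKOV3 points of the 2 compounds lie together.

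CAOV3 gave another pattern. All 10 golgins had a negative log2 change at 72 h, from -0.06 for GOLGA5 to -1.82 for GOLGA8A, with a median of -0.78 against -0.01 for all genes. The lowest values were those of GOLGA8A, GOLGA4, GOLGB1, TRIP11 and GCC2, whose log2 changes in OVCAR-3 with all libraries lay between -0.39 and 0.48. GOLGA5 and GCC1 stayed close to their controls.

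GOLGA4, a trans-Golgi GRIP golgin, was at 39.7 and 46.9 CPM with GSK-J5 and 11.6 and 12.54 CPM with GSK-J4 in the first set of CAOV3. The second set had 51.0 against 41.9 CPM. The first set was thus lower 3.66-fold by edgeR, and the log2 ratio of the second was -0.29. Over all libraries the log2 change was -1.30 (SE 0.39, 95% interval -2.31 to -0.30), and the groups overlapped because the third GSK-J4 library stood inside the GSK-J5 range.

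The other golgins far below their controls in CAOV3 had the same shape. GOLGB1 was at 99.5 and 112 CPM with GSK-J5 against 29.7 and 38.8 CPM in the first set, and at 140 against 111 CPM in the second. TRIP11 was at 75.7 and 87.2 CPM against 33.6 and 28.99 CPM, and at 101 against 80.8 CPM in the second set. GCC2, the GRIP golgin that binds several Rab proteins, was at 33.3 and 36.0 CPM against 15.5 and 13.7 CPM, and at 44.8 against 34.3 CPM. Within either set each of these genes was lower with GSK-J4, with log2 ratios of -1.25 to -1.63 in the first set and of -0.32 to -0.38 in the second. GOLGA8A was at 23 and 19 counts (0.744 and 0.614 CPM) with GSK-J4 in the first set, against 2.88 and 4.14 CPM with GSK-J5, and was at 9.21 against 4.71 CPM in the second. GOLGA8A and GOLGA8B summed gave 5.87, 8.50 and 16.4 CPM with GSK-J5 and 2.78, 1.49 and 9.53 CPM with GSK-J4.

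GOLGA3 in CAOV3 was at 112, 116 and 110 CPM with GSK-J5 and at 58.3, 65.2 and 106 CPM with GSK-J4, and it was the only golgin whose 2 groups did not overlap there with all libraries. GOLGA1 and GOLGA2 had log2 changes of -0.39 (SE 0.16) and -0.26 (SE 0.13). GOLGA5 was at 73.7, 71.4 and 78.3 CPM against 72.6, 63.2 and 77.9 CPM, and its 95% interval ran from -0.27 to 0.15. The same gene had a log2 change of 1.52 in OVCAR-3 at 72 h, and the difference between the lines was not tested, because the genes were chosen with these contrasts known.

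In CAOV3 with all libraries, 2 golgins, GOLGA8A and GCC2, were called lower by edgeR where 0.251% of all genes were. Of the golgins 0 were called higher, where 0.0642% of all genes were. At an unadjusted p under 0.05 stood 8 of the 10 golgins and 2801 of the 17137 genes tested. DESeq2 called 252 of the 17137 genes higher and 355 lower, and of the golgins 0 higher and 4 lower (GOLGA3, GOLGB1, GCC2 and TRIP11). In the first set alone 7 were called lower where 7.38% of all genes were, and 0 higher where 6.7% were. There 9 of 10 had both GSK-J4 libraries below both of GSK-J5 (24.7% of all genes) and 0 had both above (29.7%). With all libraries 1 lay wholly below (6.98% of all genes) and 0 wholly above (4.85%). Both calls ended without any 1 of the 4 first-set libraries of CAOV3, with either compound, and became 7 without either replicate 3 library. With no library set term 0 golgins were called, and with the replicate block 0 golgins and 0 genes at all were called.

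In SKOV3, the libraries of the 2 compounds overlapped for all 10 golgins. The 2 library sets, both compounds together, stood apart in golgins such as GOLGB1, GOLGA1 and GCC1. How many of all genes had their sets apart was not computed. The log2 changes ran from -0.10 for TRIP11 to 0.14 for GOLGA4, and every 95% interval held 0; the widest was that of GOLGA8A, from -0.39 to 0.53. GOLGB1 was at 130 and 129 CPM with GSK-J5 and 141 and 120 CPM with GSK-J4 in the first set, and at 74.7 and 79.3 CPM in the second. GOLGA1 was at 34.3 and 32.9 CPM against 32.2 and 29.9 CPM, and at 20.6 and 21.3 CPM in the second set. GCC1 was higher in the second set, at 52.2 and 57.0 CPM against 32.4 to 37.1 CPM in the first. By edgeR 0 golgins were called, where 0.0236% of all genes were called higher and 0.0177% lower. The first set alone also gave 0, where the shares were 0.0242% and 0.0666%. At an unadjusted p under 0.05 stood 0 golgins and 594 of the 16981 genes tested. DESeq2 called 0 golgins, where it called 4 genes higher and 12 lower. For all genes, 1.81% lay wholly above and 1.61% wholly below with all libraries, and 0 golgins did either. These intervals bound the difference and do not show that the compounds act alike.

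**Figure D2:**
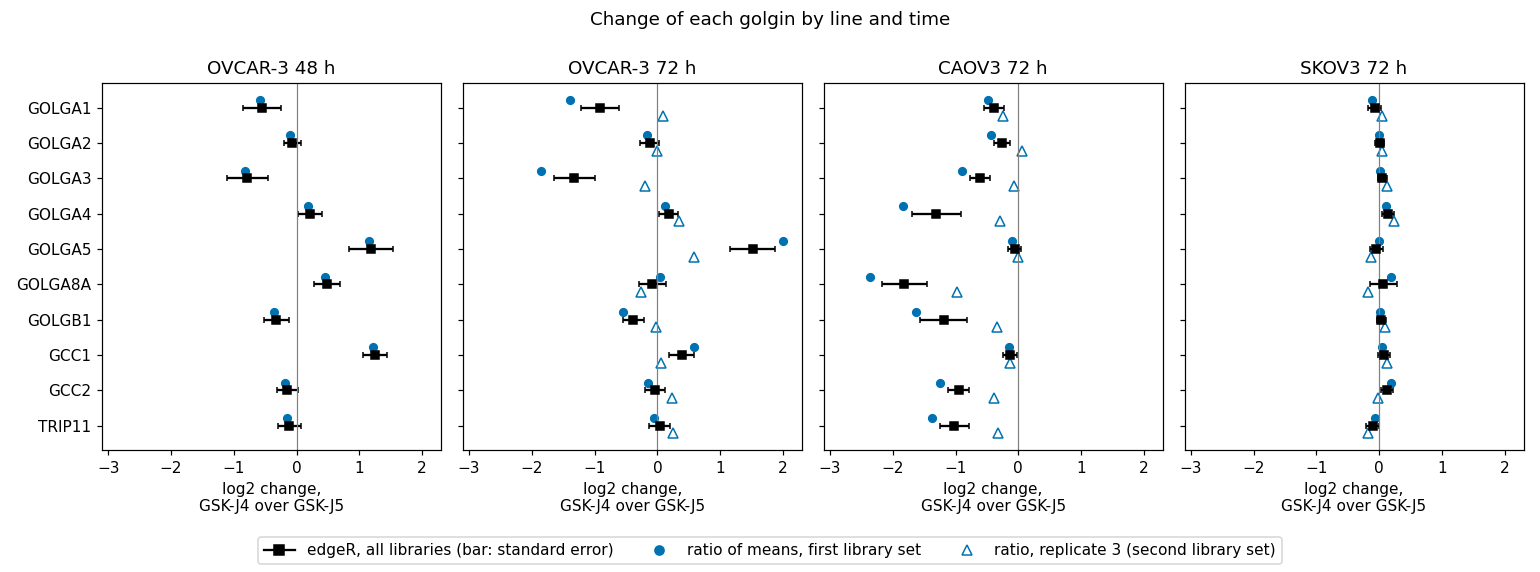
Log2 change of each golgin, GSK-J4 over GSK-J5, in the 4 comparisons. Squares with bars are the edgeR estimate over all libraries and its standard error, circles the ratio of means in the first library set, and triangles the ratio in replicate 3. The squares spread from -1.33 to 1.52 in OVCAR-3 at 72 h, lie at or below -0.06 in CAOV3 and between -0.10 and 0.14 in SKOV3, and the triangles lie nearer to 0 than the circles for the large changes.

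Pairs of golgins differed in how closely they tracked each other over the 22 libraries. With each gene's log2 of CPM plus 1 centred within its line and time, GCC2 and TRIP11 had a Pearson r of 0.962, GOLGA4 and TRIP11 0.949, GOLGA4 and GCC2 0.935 and GOLGB1 and TRIP11 0.903. GOLGA1 and GOLGA3 had 0.823, and GOLGA3 and GOLGA5 had -0.848. GOLGA5 and GCC1 tracked the mean of the other 9 least, with r of -0.13 and -0.06, and GOLGA4 the most, with 0.945. These are descriptions, since the points share libraries, depth and the same treated groups. The profiles were not centred within library set, so differences between the sets enter each r.

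**Figure D3:**
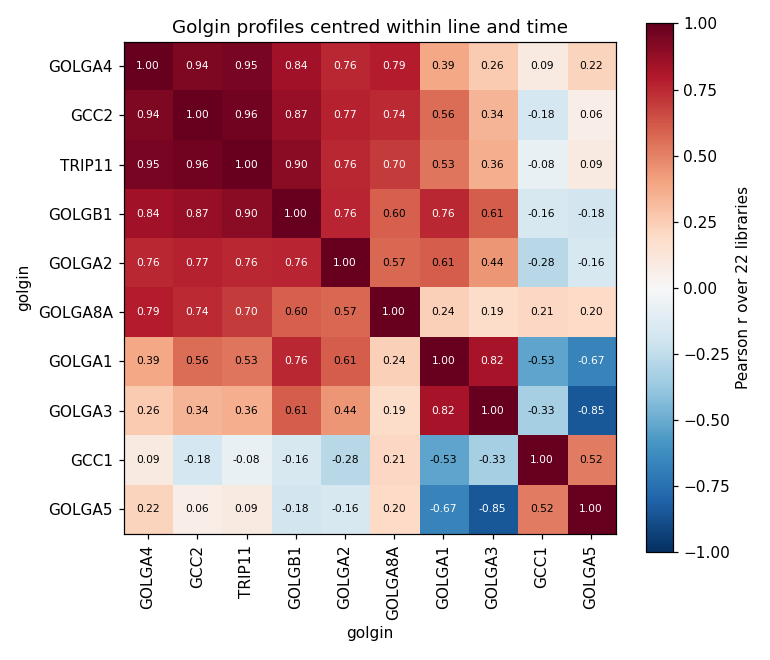
Pearson r between golgins over 22 libraries, each centred within its line and time, with blue negative and red positive. GOLGA4, GCC2, TRIP11 and GOLGB1 form a block of 0.84 to 0.96, and GOLGA5 stands against GOLGA3 at -0.85 and GOLGA1 at -0.67.

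The genes outside the family whose centred profile was most like the golgin mean, among 10627 whose mean log2 CPM reached 3, were RBBP6 (r = 0.966), NCOR1 (0.961), TPR (0.955), ROCK2 (0.953), NIPBL (0.941) and AKAP9 (0.939), over 22 libraries. NCOR1 is a transcriptional corepressor, TPR a coiled-coil protein of the nuclear pore basket, NIPBL the cohesin loader and AKAP9 a Golgi and centrosome scaffold. Their longest annotated transcripts ran from 6840 to 12471 bases. Differences between the library sets enter these r values too.

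Transcript length moved with the change across all genes, most in the first sets of CAOV3 and OVCAR-3. In the first set of CAOV3 the median log2 change was 0.18 for genes with a longest transcript of up to 2000 bases and -0.24 for those over 8000 bases, and in the first set of OVCAR-3 at 72 h it was 0.41 and -0.57. In SKOV3 the same medians were 0.02 and -0.02. The second set had a smaller span, from -0.01 to -0.16 in CAOV3. Across the 10 golgins, log2 length and the log2 change with all libraries had a Pearson r of -0.67 in CAOV3. The same r was -0.66 in OVCAR-3 at 48 h, -0.56 at 72 h and 0.19 in SKOV3. The first-set changes of GOLGA4, GOLGB1, TRIP11 and GCC2 in CAOV3, from -1.28 to -1.87, lay below the median of every length class. These are descriptions, and the part of length in the golgin values was not tested.

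**Figure D4:**
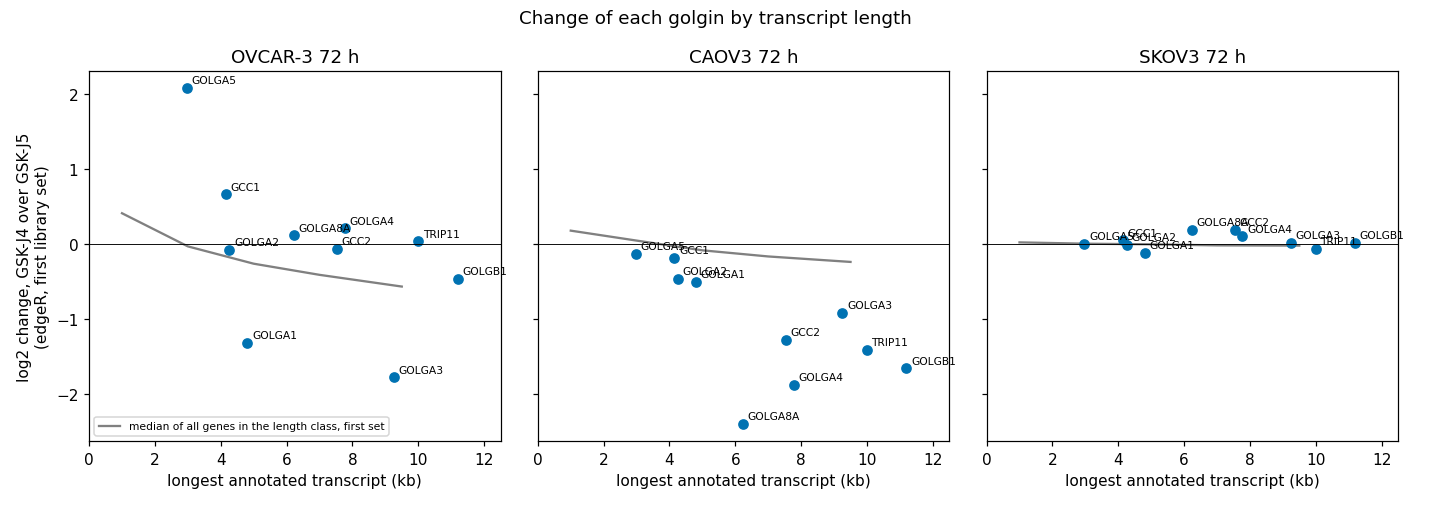
Log2 change of each golgin in the first library set (edgeR, 2 libraries per compound) against its longest annotated transcript, at 72 h. The grey line joins the medians of all genes in 5 length classes; it falls from 0.41 to -0.57 in OVCAR-3 and from 0.18 to -0.24 in CAOV3 and is flat in SKOV3, and GOLGA5 in OVCAR-3 and the longer golgins in CAOV3 lie far from it.

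Long coiled-coil proteins of other places, such as the centrosome, the kinetochore and the nuclear pore, were described alongside. In CAOV3 all 19 of them had a negative log2 change with all libraries (median -0.68), and 1 fell, CCDC88A, an actin-binding protein (log2 change -0.73, SE 0.13, adjusted p = 0.0372 by edgeR), a call that ended without any 1 of the first-set libraries. In the first set alone 18 of 19 fell (median -0.99), where 7.38% of all genes did, among them the kinetochore proteins CENPE, from 17.1 ± 2.80 to 4.49 ± 0.64 CPM (SD, n = 2, edgeR adjusted p = 6.86e-05), and CENPF, from 81.7 ± 5.29 to 24.8 ± 0.03 CPM (SD, n = 2, edgeR adjusted p = 4.38e-07). In OVCAR-3 at 48 h 5 of 19 fell and 0 rose, where 7.63% of all genes fell and 11.3% rose, CENPF 3.86-fold (adjusted p = 0.0248 by edgeR) and CENPE 3.42-fold (adjusted p = 0.0177 by edgeR). None passed in OVCAR-3 at 72 h, with 8 at an unadjusted p under 0.05 and a median of -0.54, or in SKOV3, with 1 and a median of 0.02. Over all genes tested, 7244 of 16802 in OVCAR-3 at 72 h and 594 of 16981 in SKOV3 were under that p.

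Genes that work with the golgins were taken from 9 lists of 130 genes in all. In OVCAR-3 at 48 h, edgeR called 19 of these higher and 4 lower, in a fit where 11.3% of all genes rose and 7.63% fell, and the list counts that follow for 48 h are to be set beside those 2 shares. Of 16 other Golgi coiled-coil and tethering proteins 4 rose and 0 fell, with a median log2 change of 0.37 against -0.03 for all genes. They included GORASP1 (GRASP65), the stacking protein that anchors GOLGA2, from 44.2 ± 0.29 to 97.0 ± 2.80 CPM (SD, n = 2, edgeR adjusted p = 0.0297), and BICD2, a dynein adaptor, from 55.3 ± 0.02 to 105 ± 9.70 CPM (SD, n = 2, edgeR adjusted p = 0.0214). Of 20 GTPases and exchange factors that recruit golgins, 1 fell and 0 rose: ARFRP1, which brings ARL1 to the trans-Golgi, went from 57.8 ± 2.25 to 17.1 ± 2.99 CPM (SD, n = 2), 3.30-fold lower (edgeR adjusted p = 0.0182).

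Vesicle coats and fusion proteins were mixed at 48 h, beside the 11.3% of all genes that rose and the 7.63% that fell. Of 16 Golgi SNAREs, the proteins that fuse vesicles, 5 rose and 0 fell, led by VAMP4 (2.91-fold, edgeR adjusted p = 0.0358) and YKT6 (2.01-fold, edgeR adjusted p = 0.0321). Of 16 genes of the COPII coat and its exit sites 1 rose and 2 fell. MIA2, an exit-site receptor for large cargo, went from 19.9 ± 0.04 to 171 ± 5.51 CPM (SD, n = 2), 8.77-fold (edgeR adjusted p = 0.0304), and SEC24D, a coat subunit, fell 1.49-fold (edgeR adjusted p = 0.0454). None of 9 COPI and none of 13 COG and GARP genes passed by edgeR, with 2 and 4 at an unadjusted p under 0.05. Over all genes tested, 7262 of 17402 were under that p. Of 14 TRAPP subunits 3 rose and 0 fell, among them TRAPPC6B (1.83-fold, edgeR adjusted p = 0.0485) and TRAPPC10 (1.70-fold, edgeR adjusted p = 0.0223). Of 13 Golgi N-glycan enzymes with enough counts, MAN2A2 rose 2.16-fold (edgeR adjusted p = 0.0325) and FUT8 fell 1.97-fold (edgeR adjusted p = 0.0464).

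The Golgi stress response list, transcription factors and their targets, had 5 of 13 genes higher and 0 lower at 48 h, where 11.3% of all genes were higher and 7.63% lower, with a median log2 change of 0.70. TFEB, a regulator of lysosome and Golgi genes, went from 3.41 ± 0.15 to 18.5 ± 1.17 CPM (SD, n = 2), 5.55-fold (edgeR adjusted p = 0.00937), and KLF4, a transcription factor, rose 3.40-fold (edgeR adjusted p = 0.0118). The 48 h calls on these lists went to 0 when any single library of 48 h was left out. In the other comparisons with all libraries, 0 genes of the 9 lists passed by edgeR. At an unadjusted p under 0.05, OVCAR-3 at 72 h had 8 of 13 Golgi stress genes and 10 of 16 other tethering proteins, CAOV3 had 3 and 8, and SKOV3 had 1 and 0. Over all genes tested the numbers were 7244 of 16802 in OVCAR-3 at 72 h, 2801 of 17137 in CAOV3 and 594 of 16981 in SKOV3.

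For OVCAR-3 at 72 h, first set alone, 59 of the 91 list genes called were higher, in a fit that called 34.6% of all genes higher and 37.1% lower. MIA2 stood at 285 ± 31.2 CPM against 19.5 ± 0.94 (SD, n = 2, edgeR adjusted p = 2.72e-07), and the COPI subunit ARCN1 at 332 ± 37.9 against 129 ± 3.47 CPM (SD, n = 2, edgeR adjusted p = 5.58e-06). ARFRP1 was 4.13-fold lower (edgeR adjusted p = 1.92e-06). For CAOV3, first set alone, 15 of the 26 list genes called were higher, where 6.7% of all genes were called higher and 7.38% lower. AKAP9 fell there 3.50-fold (edgeR adjusted p = 7.44e-06), and CREB3, a membrane-bound factor of Golgi stress, rose 1.31-fold (edgeR adjusted p = 0.00912). SNAREs and N-glycan enzymes had 0 called in that set by edgeR, with 3 and 2 at an unadjusted p under 0.05. Over all genes tested in that set, 4257 of 16554 were under that p.

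Levels between genes are compared here as CPM per kb of merged exons with GSK-J5 at 72 h. In OVCAR-3, GOLGA2 was at 19.1 ± 1.11 (SD, n = 3) and GOLGA5 at 16.4 ± 1.87 per kb, and these neighbours overlapped. GOLGB1 (13.2 ± 2.26) came next, then GOLGA3, GCC1 and GOLGA4 between 8.49 and 9.10 per kb with overlapping ranges, TRIP11 at 6.65, GOLGA1 at 4.21, and GCC2 at 2.37 and GOLGA8A at 1.94, which overlapped. In CAOV3 GOLGA5 led, at 22.6 ± 1.06 per kb (SD, n = 3), apart from GOLGA2 at 13.3 ± 1.60, and in SKOV3 GOLGA5 and GOLGA2 led with overlapping ranges. GOLGA8A was lowest in all 3 lines. With GSK-J4, GOLGA5 was at 50.2 ± 19.9 per kb (SD, n = 3) in OVCAR-3, where GOLGA2 followed at 17.7 ± 1.36.

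Between the lines, on the CPM scale with GSK-J5 at 72 h, 5 golgins had their highest mean in OVCAR-3. GOLGA4 was at 91.1 ± 8.33 CPM in OVCAR-3, 45.9 ± 5.73 in CAOV3 and 40.7 ± 9.0 in SKOV3 (SD, n = 3 each), with OVCAR-3 apart from the other two and those overlapping. GOLGA2 had the same order, at 133 ± 7.76, 92.3 ± 11.1 and 76.2 ± 8.46 CPM. For TRIP11 the 3 lines were all apart, with CAOV3 at 88.0 ± 12.7, OVCAR-3 at 69.0 ± 3.88 and SKOV3 at 51.1 ± 12.4 CPM. GCC1, GCC2 and GOLGB1 overlapped between neighbouring lines throughout, and GCC1 spanned only 40.6 to 44.6 CPM in its means. With GSK-J4 the order changed for some: the CAOV3 mean of TRIP11 was the lowest of the lines, at 47.8 ± 28.7 CPM, overlapping SKOV3. With GSK-J4 the 3 lines were all apart for GOLGA5. It was at 165 ± 65.5 CPM in OVCAR-3, 71.2 ± 7.48 in CAOV3 and 44.9 ± 9.46 in SKOV3 (SD, n = 3 each). Line orders of all genes were not computed, so nothing is read from how many golgins had a given order.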

How the data were processed

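The deposited values were raw counts per gene, whole numbers without normalization, made by the authors for 58825 Ensembl identifiers in each of 3 tables. Per the submitters' processing notes, STAR, DESeq2 and the build GRCh38 (hg38) were used, without versions or roles. For the counting tool, the strand setting and the annotation, the sources used here give nothing. Symbols came from a name table for 58472 identifiers and from GENCODE 29 for 345, and positions and transcript lengths from GENCODE 29. One OVCAR-3 column with an irregular header was taken for GSK-J4, 72 h, replicate 3. The members and gene lists were chosen with earlier results of these data known.

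Counts were analysed in R 4.3.3 with edgeR 4.0.16: filterByExpr (minimum count 10), TMM, robust quasi-likelihood fits and tests, with the library set as a covariate, and Benjamini-Hochberg adjustment over all genes with a threshold of 0.05. Each 72 h comparison used its 6 libraries, and the 48 h comparison all 10 OVCAR-3 libraries. SE is the absolute log2 change over the square root of F. Named list genes were, per list and comparison, the 2 called members with the largest change and a mean log2 CPM of at least 1. Only some of those genes are given, and others are not reported here. DESeq2 1.42.0 served as an alternative. The fits were tested on simulated data. Same-numbered libraries deviated together in SKOV3 (correlations 0.629, 0.638 and 0.885), which follows the library set. In CAOV3 the correlations were weaker (0.151, 0.0709 and 0.399), and in OVCAR-3 at 48 h they were 0.221. In OVCAR-3 at 72 h they were -0.0752, 0.041 and 0.00657. Alternatives covered scaling, filter, set term, replicate block, sets of libraries and leaving out libraries. Total counts of 24037007 to 37990707 per library set the counting precision.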

Additional observations from a re-analysis of the deposited data

How the results depend on the processing

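The counts of golgins called rest on few libraries. In OVCAR-3 at 48 h the count higher was 1, and 0 to 3 when a library or replicate was left out; the count lower was 0, and 0 to 2; the Golgi list genes called were 23, and 0 to 81. At 72 h these were 0 (0 to 2), 0 (0 to 3) and 0 (0 to 93). In CAOV3 the count lower was 2 (0 to 7), and the list genes 0 (0 to 29). The first library set alone gave 3 higher, 2 lower and 81 list genes at 48 h, 2, 3 and 91 at 72 h, and 7 lower and 26 in CAOV3; the 4 libraries of 48 h alone gave 3, 2 and 83; all 10 OVCAR-3 libraries in 1 fit gave 1, 2 and 67 at 72 h. DESeq2's Wald test gave 2 higher and 42 at 48 h, 1, 2 and 52 at 72 h, and 4 lower and 4 in CAOV3, where its adjusted p for GOLGA8A was not available. With no filter on low counts 2 were higher at 48 h, 1 and 1 with 8 at 72 h, and 4 lower with 5 in CAOV3. Over all genes, that setting called 2491 higher and 1559 lower of 31514 at 48 h and 992 and 334 of 29067 at 72 h. In CAOV3 it called 276 and 556 of 25424. The 10-library fit at 72 h called 3983 and 3635 of 17402 genes, and the 4 libraries of 48 h alone 5061 and 5145 of 16472. With no set term 5 list genes were called at 48 h and 0 golgins were lower in CAOV3. With the replicate block, 0 golgins and 0 list genes were called at 48 h and 0 golgins in CAOV3. In SKOV3 it left 0 golgins and 0 list genes, as every alternative did. Replicates 1 and 2 of SKOV3 also deviated together across numbers (correlations 0.527 and 0.532), so the numbers were not shown to pair libraries. The causes were not tested, beyond the fewer libraries in some of these fits. Of 700 alternative values of single golgins' log2 changes, 665 moved by less than the SD between replicates, which at 72 h includes the difference between library sets. Reversal was counted only for golgins called in the main fits, GCC1 at 48 h and GOLGA8A and GCC2 in CAOV3, and 0 reversed. Golgins that were not called did change sign in some alternatives, such as GOLGA4, GCC1 and TRIP11 in OVCAR-3 at 72 h with library totals. Depth limits GOLGA8A in CAOV3, with 19 counts in 1 library.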
